A study of Mus musculus with 2 samples.

Results

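Serpins are a large family of proteins, most of which inhibit proteases. An inhibitory serpin offers a protease an exposed loop as bait, and once the loop is cut the serpin changes shape and traps the enzyme. Other serpins carry hormones or act as chaperones. The family is divided into clades by sequence, and the letter after Serpin in a mouse symbol names the clade. Clade A holds secreted proteins of the plasma, clade B intracellular inhibitors, and the smaller clades hold inhibitors of clotting, plasmin and complement, and a chaperone of collagen. In fat, adipocytes and stromal cells secrete several serpins, while many plasma serpins are made mainly by the liver.

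The genes described here are those whose only symbol in the platform annotation starts with Serpin. There were 48 of them among 19938 named genes, each with 1 probe set. All 48 had a gene identifier in the RefSeq table of assembly GRCm38.p6, with the same symbol. The set was chosen by name, but with the difference between these same arrays in view, so the members' differences are a description and carry no test.

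White adipose tissue of 24-week-old mice was profiled on Affymetrix Mouse Gene 1.0 ST arrays. The study has 1 array of a control mouse, titled Oma1_WT, and 1 array of an Oma1-deficient mouse, titled Oma1_KO. Both groups had been on a high-fat diet for 20 weeks. Oma1 encodes a protease of the inner mitochondrial membrane. The labels give neither the fat depot, nor the kind of Oma1 allele, nor any pooling of mice, nor sex or strain. With 1 array per group there is no replicate error, no test of genotype and no p-value, and every difference below is between these arrays. Oma1 itself read 187 in Oma1_WT and 155 in Oma1_KO, a log2 difference of -0.27, and which exons were deleted is not given, so it does not check the label. The 8 adipocyte markers measured, among them Lep and Adipoq, read between 3721 and 10771 on both arrays, each of which had a median of 83 over all probe sets.

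Values are the deposited linear intensities. Each difference is log2(intensity + 1) in Oma1_KO minus the same in Oma1_WT, a scale that understates the change of dim genes. An intensity of 83, the median of all probe sets, served as a minimum for the mean of both arrays on the log2 scale. Of the 48 Serpin genes, 15 were at or above it and 33 below it. The members next to the minimum were Serpina1d, with a mean of 91.3, and Serpind1, with 93.9, above it, and Serpina11 with 71.0, Serpinb9b with 66.8 and Serpine3 with 64 below it. No detection call was available, so a signal below the minimum may be background.

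Most of the family was dim or differed little, and the exceptions were a set of plasma serpins that read higher in Oma1_KO and Serpina3b, which read lower. Over the 48 members, 23 read higher in Oma1_KO, where 46.9% of all genes did, 18 read lower, where 47.9% did, and 7 were equal. The median difference was 0.00, as it was over all 19938 genes. At least 1.5-fold higher were 6 members, and 1.15% of all genes were. At least 1.5-fold lower was 1 member, and 1.40% of all genes were. Above the minimum, 3 of 15 members were at least 1.5-fold higher, where 1.26% of 11394 genes were, and 1 was at least 1.5-fold lower, where 1.75% were. At 2-fold there were 0 members higher, with 0.272% of genes above the minimum, and 1 lower, with 0.246%. The rule for the members used this same contrast, so nothing is read from these shares. Serpind1 and Serpina1d were above the minimum only through their Oma1_KO value, and Serpina3b only through its Oma1_WT value. Above the minimum more genes read lower (62.3%) than higher (36.6%) in Oma1_KO, with a median of -0.06, and the bright lists below are read against that.

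**Figure D1:**
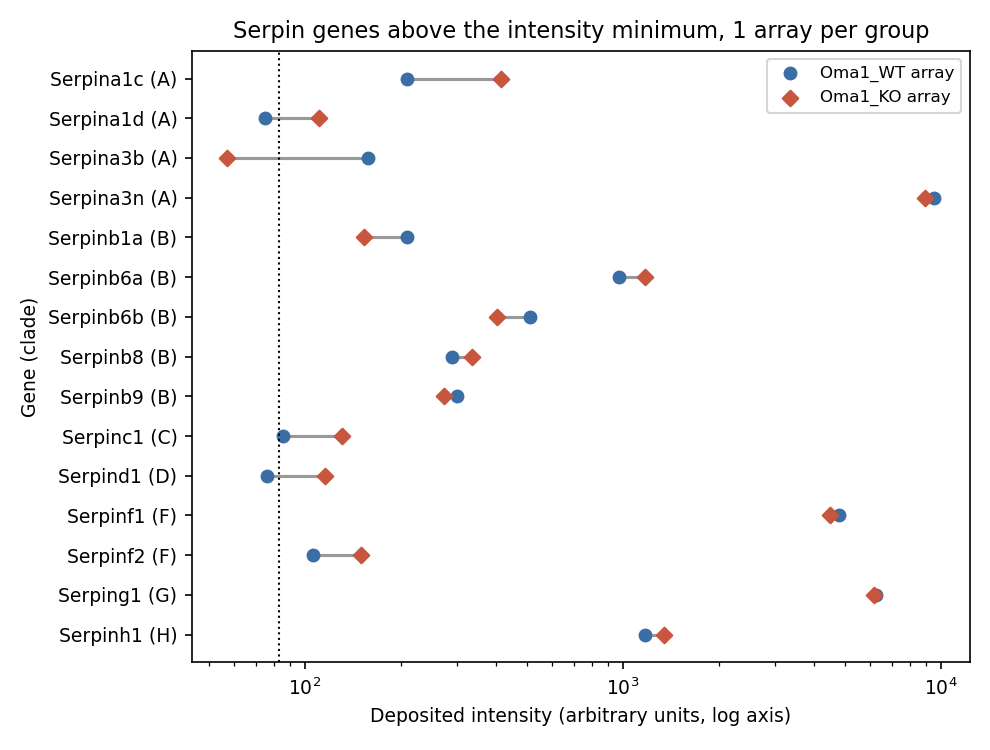
Deposited intensity (arbitrary units, log axis) of the 15 Serpin genes at or above the intensity minimum of 83 (dotted line), with a circle for the Oma1_WT array, a diamond for the Oma1_KO array and the clade in brackets. Each symbol is 1 array, so there are no error bars; Serpina1c, Serpina1d, Serpinc1, Serpind1 and Serpinf2 lie to the right in Oma1_KO and Serpina3b to the left.

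The alpha-1-antitrypsin genes, which encode the main plasma inhibitor of neutrophil elastase, exist in several near-identical copies in the mouse. Serpina1c read 209 in Oma1_WT and 414 in Oma1_KO, a log2 difference of 0.98 or 1.98-fold. Of the 11394 genes above the minimum, 33 had a still higher difference. Serpina1d read 75 and 111, a difference of 0.56, with the Oma1_WT value below the minimum. Serpina1f, another gene of the cluster, was dim on both arrays at 31 and 30. A further 2 probe sets are annotated to Serpina1a, Serpina1b, Serpina1c, Serpina1d and Serpina1e together and enter no gene value. The dimmer of them read 291 and 501, a difference of 0.78, while the brighter read 2821 and 2891, a difference of 0.04. The probe sets of this subfamily therefore did not give a single size of difference, and cross-signal between copies was not tested.

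The closeness of these copies is visible in the DNA before their starts. The stretches of 80 bases below are shown because they come from the 5 genes that share the probe sets. They are taken from RefSeq, build GRCm38.p6, run 5′ to 3′ on the minus strand and end before the annotated start of transcription, and capitals mark GTTAAT.
Serpina1a, chr12:103863629-103863708: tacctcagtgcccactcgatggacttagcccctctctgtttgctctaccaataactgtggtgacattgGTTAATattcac
Serpina1b, chr12:103738204-103738283: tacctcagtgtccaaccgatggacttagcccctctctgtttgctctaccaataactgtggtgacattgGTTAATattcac
Serpina1c, chr12:103904966-103905045: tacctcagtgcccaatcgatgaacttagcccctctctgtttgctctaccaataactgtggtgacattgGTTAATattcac
Serpina1d, chr12:103773638-103773717: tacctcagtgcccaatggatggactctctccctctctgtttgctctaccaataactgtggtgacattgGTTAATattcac
Serpina1e, chr12:103956964-103957043: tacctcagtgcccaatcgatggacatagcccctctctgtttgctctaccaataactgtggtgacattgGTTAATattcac

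Against Serpina1c, the stretch differed at 2 bases in Serpina1a, 3 in Serpina1b, 6 in Serpina1d and 2 in Serpina1e. GTTAAT is the core of the motif bound by HNF1, a transcription factor of hepatocytes. Searched on both strands (GTTAAT or ATTAAC) in the 250 bases before each start, it occurred in 6.43% of 32851 promoters. A promoter was listed for 41 of the 48 members, and 6 of them held it: Serpina1c, Serpina1d, Serpina7, Serpinb3d, Serpinb8 and Serpini2. Of these, Serpina7, Serpinb3d and Serpini2 were below the minimum. A match of these letters is a description of the sequence and not evidence of a bound site.

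The main plasma inhibitors of thrombin and plasmin also read higher in Oma1_KO, as Serpina1c and Serpina1d did. Serpinc1, which encodes antithrombin, the main inhibitor of thrombin, read 85 and 131, a difference of 0.62. Serpind1, which encodes heparin cofactor II, another thrombin inhibitor, read 76 and 116, a difference of 0.60. It fell short of 1.5-fold after loess and with a pseudocount of 16, and below the minimum when that was set on the Oma1_WT value alone. Serpinf2, which encodes alpha-2-antiplasmin, the inhibitor of plasmin, read 106 and 150, a difference of 0.50, short of 1.5-fold. These readings lie close to the minimum, where the sizes of differences are uncertain.

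The hormone carriers of clade A were dim. Serpina6, which encodes corticosteroid-binding globulin, read 37 and 65, a difference of 0.80. Serpina7, which encodes thyroxine-binding globulin, read 22 and 25, a difference of 0.18. Both were below the minimum on both arrays. Serpina10, an inhibitor of activated factor X that needs protein Z, was also below it at 50 and 55. Of the other dim clade A genes, Serpina11 read 56 and 90, a difference of 0.67, and the pseudogene Serpina4-ps1 read 28 and 49, a difference of 0.79. Serpina11 was thus above the minimum in Oma1_KO alone.

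**Figure D2:**
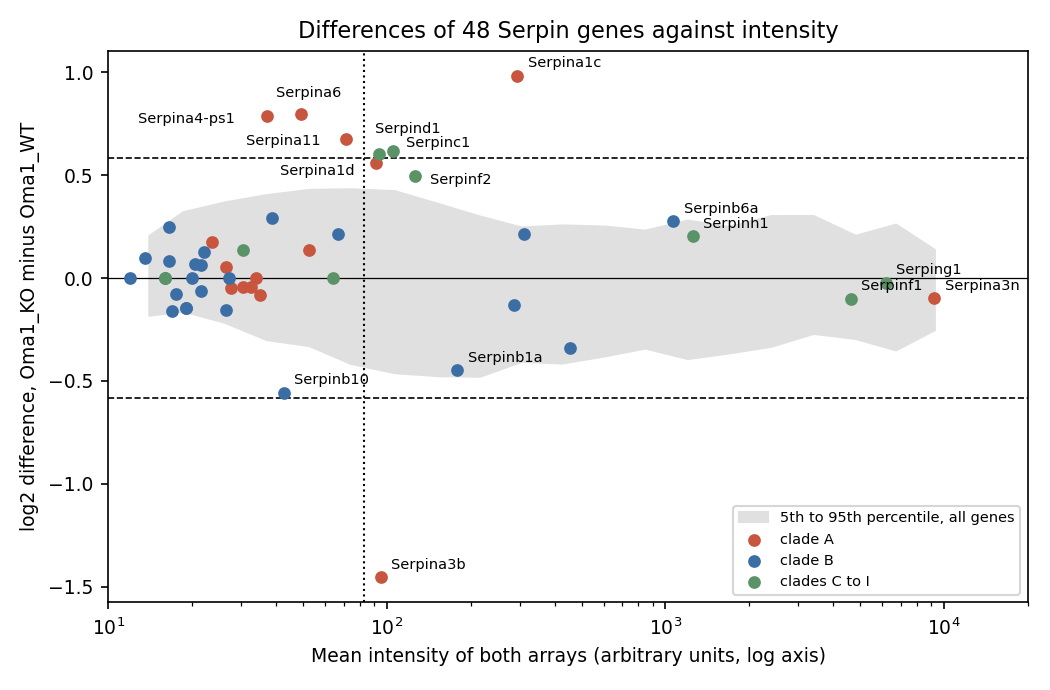
Log2 difference, Oma1_KO minus Oma1_WT, of the 48 Serpin genes against their mean intensity (arbitrary units, log axis), coloured by clade, with the range from the 5th to the 95th percentile of all genes of like intensity in grey, the 1.5-fold lines dashed and the minimum of 83 dotted. Serpina1c (0.98) and Serpina3b (-1.45) lie farthest from 0, the clade B genes all lie within 1.5-fold, and the 5 brightest genes lie between -0.10 and 0.28.

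Taken as a group chosen after their values were seen, 8 plasma serpins known to come mainly from the liver (Serpina1c, Serpina1d, Serpina6, Serpina7, Serpina10, Serpinc1, Serpind1 and Serpinf2) were all higher in Oma1_KO. The choice on these values fixes that direction. Their differences ran from 0.13 to 0.98 with a median of 0.58, 4 of 8 reached 1.5-fold (1.15% of all genes did in that direction), and 3 were below the minimum. The 2 probe sets shared by Serpina1a to Serpina1e are outside the group. The brighter read 2821 and 2891 (0.04) and the dimmer 291 and 501 (0.78). Serping1 and Serpinf1, which the liver also makes along with other tissues, are outside the group and differed by -0.02 and -0.10. Of the 16 members outside both the group and clade B, 5 read higher and 8 lower, 3 were equal, and the median was -0.01. That median follows from the same choice, which took higher members out. Serpina11 (0.67) and Serpina4-ps1 (0.79) are among the 16.

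Most hepatocyte markers also read higher in Oma1_KO. The serpin group was chosen on its values, so nothing is read from this likeness. The marker lists, too, were chosen with earlier results of these data known. Of 11 markers 10 were higher in Oma1_KO, where 46.9% of all genes were. At least 1.5-fold higher were 8, all above the minimum, where 1.26% of genes were. The median was 0.91, against 0.00 for all genes and -0.06 for those above the minimum, as 10 of the markers were. Alb, which encodes albumin, read 1692 and 4523 (1.42), and Apoa1, the main protein of high-density lipoprotein, 253 and 904 (1.83). Ttr, which encodes transthyretin, read 381 and 717 (0.91). The exception was Cyp2e1, a cytochrome P450 that adipocytes also express, at 6384 and 3237 (-0.98). The summed intensity of the 11 markers was 10539 in Oma1_WT and 12911 in Oma1_KO, and without Cyp2e1 it was 4155 and 9674. Cyp2e1 was on the list as written, and leaving it out removes the only lower marker, so nothing is read from the second sum. The lowest marker was Fga, a chain of fibrinogen, at 42.4 and 53.0, below the minimum, where a signal may be background. The part of liver RNA in the differences of the plasma serpins was not tested, and in a bulk sample more cells of a type cannot be told apart from more RNA per cell.

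**Figure D3:**
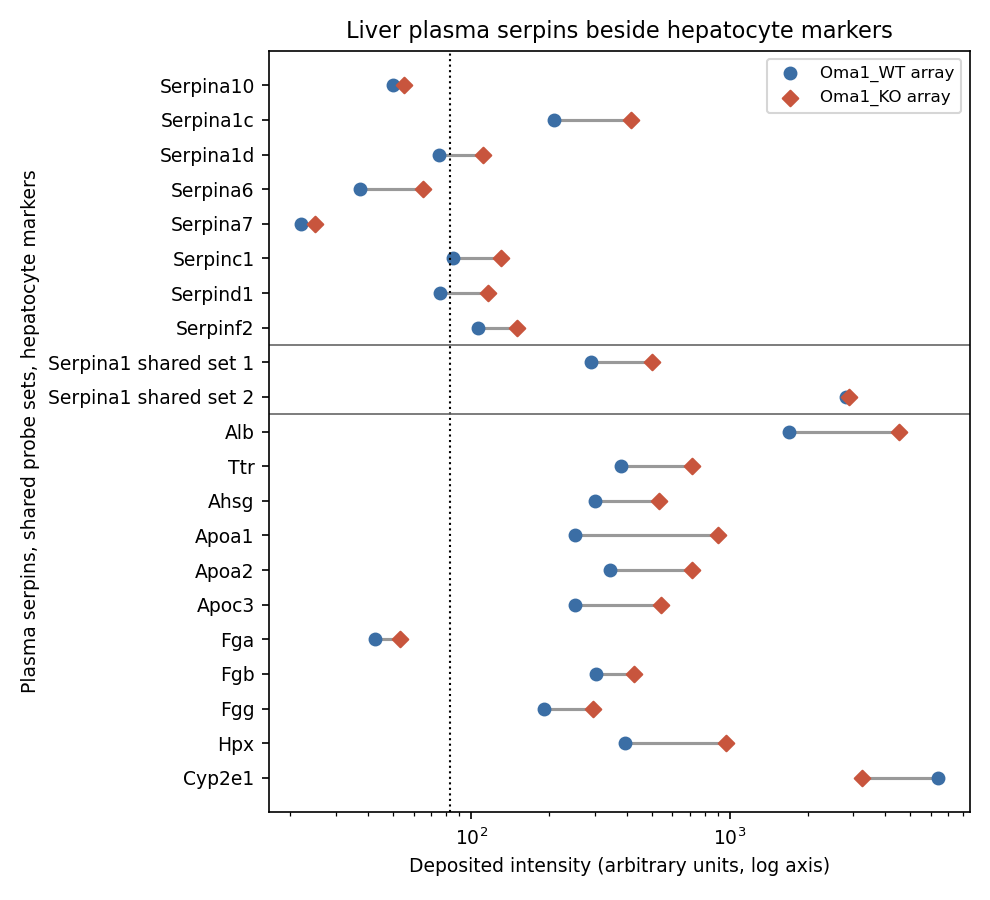
Deposited intensity (arbitrary units, log axis) of 8 plasma serpins, of the 2 probe sets shared by the Serpina1 copies and of 11 hepatocyte markers, with a circle for the Oma1_WT array, a diamond for the Oma1_KO array and the minimum of 83 dotted. All 8 serpins and 10 of 11 markers lie to the right in Oma1_KO, and the brighter shared probe set reads 2821 and 2891.

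The members related to alpha-1-antichymotrypsin, a secreted inhibitor that rises in the acute phase, were Serpina3a, Serpina3b and Serpina3n. Other copies, such as Serpina3c and Serpina3f, were not among the 48 members. Of the members named, Serpina3b alone was past 1.5-fold lower. It read 158 in Oma1_WT and 57 in Oma1_KO, a log2 difference of -1.45. The Oma1_KO value was below the minimum, so the size is uncertain. Serpina3n, a neighbour in the same cluster on chromosome 12 and the form of this inhibitor known to be abundant in fat, read 9544 and 8927, a difference of -0.10. Serpina3a was dim at 26 and 27. The mouse cluster holds several closely related Serpina3 copies, so signal of one on the probe set of another is possible.

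The promoters of Serpina3b and Serpina3n are shown because these neighbours differed by unequal amounts. Both stretches are the 80 bases before the annotated start on the plus strand, from RefSeq, build GRCm38.p6, 5′ to 3′, with TATAAA in capitals.
Serpina3b, chr12:104127916-104127995: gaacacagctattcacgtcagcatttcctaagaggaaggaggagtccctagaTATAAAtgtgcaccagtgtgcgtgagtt
Serpina3n, chr12:104406628-104406707: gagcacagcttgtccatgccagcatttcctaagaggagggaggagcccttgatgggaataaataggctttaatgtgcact

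TATAAA, the core of the TATA box, began 28 bases before the start in Serpina3b and was not found in these letters in Serpina3n. Searched on both strands (TATAAA or TTTATA) in 250 bases, it occurred in 12.4% of all promoters and in 11 of the 41 member promoters. Serpina3b was the only one of these 11 above the minimum.

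The list of other acute-phase proteins did not share the direction of the plasma serpins, which were chosen after their values were seen. Of 12 measured, 4 were higher and 8 lower, with a median of -0.33, and 5 were below the minimum. Over all genes 47.9% were lower. Which cells made their RNA was not tested. Orm2, an orosomucoid, read 342 and 98 (-1.79), and Saa2, a serum amyloid A, 152 and 84 (-0.85), both lower as Serpina3b was. Hpx, which binds haem and is also among the hepatocyte markers, read 394 and 963 (1.29). Lcn2, an iron-siderophore binding protein, read 1784 and 2527 (0.50).

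The remaining clade A genes were dim and nearly equal. Serpina12 encodes vaspin, an adipokine described in visceral fat of obese rodents, and read 34 on both arrays. Serpina5, which encodes the protein C inhibitor, read 36 and 34. Serpina9, known from germinal centre B cells, read 28 and 27, and Serpina16 read 33 and 32. The 15 clade A genes, with 8 higher, 6 lower and 1 equal, had a median difference of 0.05, which was -0.01 after loess.

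Serpina3n, Serping1 and Serpinf1, bright secreted serpins, differed by less than the disagreement between probe sets of a gene. That disagreement had an SD of 0.17 on the log2 scale over the 545 genes above the minimum with 2 probe sets, and it covers only the measurement on these RNAs. Serping1, which encodes the C1 inhibitor of the complement and contact systems, read 6249 and 6152, a difference of -0.02, which was 0.02 after quantile normalisation and also above 0 after loess and after centring. Serpinf1, which encodes pigment epithelium-derived factor, a protein that binds the lipase of lipid droplets and inhibits vessel growth, read 4794 and 4470, a difference of -0.10.

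Serpinh1 encodes HSP47, a chaperone of the endoplasmic reticulum that folds collagen. It read 1170 and 1347, a difference of 0.20. Of 10 collagen genes, all above the minimum, 9 were lower and 1 higher in Oma1_KO, where 62.3% of genes above the minimum were lower. Their median was -0.23 against -0.06 for those genes, and 0 were past 1.5-fold. All 7 endothelial markers were lower as well, with a median of -0.34 and a summed intensity of 8207 and 6358. Of 6 fibroblast markers, which include Col1a1, Col1a2 and Col3a1, 3 were higher and 3 lower, with a median of 0.02. The others were Pdgfra (0.23), Dpt (0.32) and Dcn (-0.04). The part of either cell type in the collagen values was not tested. Col4a2, a chain of the basement membrane collagen, read 1610 and 1147 (-0.49). Col3a1, of fibrillar collagen, read 1724 and 1328 (-0.38).

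Clade B, the intracellular inhibitors, had 24 members, and 0 of them reached 1.5-fold, which 2.55% of all genes did in either direction, so the count is near that of any genes. They split into 10 higher, 10 lower and 4 equal around a median of 0.00, and 5 were above the minimum. Serpinb1a, an inhibitor of neutrophil elastase, proteinase 3 and cathepsin G, read 209 and 153, a difference of -0.45. Serpinb6b read 510 and 402, a difference of -0.34, while its paralogue Serpinb6a, an inhibitor of cathepsin G, read 969 and 1175, a difference of 0.28. Serpinb8, an inhibitor of furin, read 289 and 335 (0.21). Serpinb9, which protects cells from granzyme B, read 300 and 274 (-0.13). The Serpinb6 and Serpinb9 genes have close copies next to them, and their probe sets may share signal.

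The other 19 clade B genes read between 12 and 72. Serpinb2, plasminogen activator inhibitor 2 of macrophages and keratinocytes, read 35 and 43. Serpinb10 read 52 and 35, a difference of -0.56. Maspin, encoded by Serpinb5, read 22 and 21, and the squamous epithelial genes Serpinb3a, Serpinb7, Serpinb12 and Serpinb13 read between 12 and 28. Of the 5 markers of stratified epithelium 4 were below the minimum too. The 3 probe sets shared by Serpinb9d, Serpinb9e, Serpinb9f and Serpinb9g read 18 or 19 in Oma1_WT and 20 or 21 in Oma1_KO. In clade I, Serpini1, which encodes neuroserpin, read 29 and 32, and Serpini2 read 16 on both arrays. Serpine3 read 64 on both arrays.

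The proteases that serpins trap, and their cofactors, were taken from lists written for this description. These lists were chosen with earlier results of these data known. The 9 fibrinolysis genes measured had a median of 0.10, with 7 higher and 2 lower. All 9 were above the minimum, where 36.6% of genes were higher and the median was -0.06. Vtn, which encodes vitronectin, a plasma protein that stabilises a serpin, read 467 and 701 (0.58, exactly 1.5-fold after adding 1). Plg, which encodes plasminogen, the target of alpha-2-antiplasmin, read 136 and 189 (0.47), and Plau, the urokinase plasminogen activator, 1550 and 1847 (0.25). Lrp1, the receptor that clears complexes of serpins and proteases, read 4962 and 5731 (0.21).

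Of 20 coagulation genes 15 were higher and 5 lower, with a median of 0.13. Below the minimum were 6 of the 20. Over all genes 46.9% were higher, with a median of 0.00. F2, which encodes prothrombin, the precursor of the target of antithrombin and heparin cofactor II, read 104 and 140 (0.43). Kng1, which encodes kininogen, read 221 and 568 (1.36), and Fgg, a fibrinogen chain, 192 and 297 (0.63). The list shares its fibrinogen genes with the hepatocyte markers. Thbd, which encodes thrombomodulin of endothelial cells, read 808 and 676 (-0.26), lower as the endothelial markers were.

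Of the 7 complement C1 genes, targets of the C1 inhibitor or their partners, 6 were higher and 1 lower, with a median of 0.28 and 0 past 1.5-fold. Below the minimum were 2 of the 7. Over all genes 46.9% were higher, and 2.55% were past 1.5-fold in either direction. C1ra, a protease of the complex, read 175 and 222 (0.34), and C1s1, another, 1502 and 1784 (0.25), while Serping1 itself was nearly equal. The C1q genes of the list are also macrophage markers, of which 8 of 9 were higher, with a median of 0.28 and a summed intensity of 28339 and 33315. All 9 markers were above the minimum, where 36.6% of genes were higher with a median of -0.06. The part of macrophage RNA in the C1 list was not tested.

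Leukocyte serine proteases were mostly dim, with 8 of 10 below the minimum. Elane, which encodes neutrophil elastase, read 73 and 76, Gzmb, which encodes granzyme B, 31 and 30, and Ctsg, which encodes cathepsin G, 24 and 30. These 3 targets were below the minimum on both arrays, while their inhibitors Serpinb1a and Serpinb9 were above it. The mast cell proteases Mcpt4, at 215 and 426 (0.98), and Tpsb2, at 202 and 308 (0.61), were the members of the list above the minimum. Tpsab1, another tryptase, was below it and lower, at 53 and 34 (-0.63). Of 7 mast cell markers, which include Mcpt4 and Tpsb2, 6 were higher, with a median of 0.61, where 46.9% of all genes were higher. Cpa3, a mast cell carboxypeptidase, read 282 and 663 (1.23). The marker that was lower was Kit, above the minimum at 212 and 187 (-0.18). Below the minimum were 3 of the 7. The part of mast cell RNA was not tested. Of the 5 lysosomal cysteine proteases 4 were higher and 1 lower, with a median of 0.03, and Ctsl, which encodes cathepsin L, read 7684 and 6306 (-0.29). All 5 were above the minimum, where 36.6% of genes were higher.

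Agt encodes angiotensinogen, which is a clade A serpin by protein but does not carry the Serpin symbol and so is no member. It read 1247 and 816, a difference of -0.61 or past 1.5-fold lower, and is also made by adipocytes. Of the 5 renin-angiotensin genes measured 3 were higher and 2 lower, and Agtr1a, which encodes its main receptor, read 624 and 497 (-0.33). All 6 genes listed for the glucocorticoid axis, beside the carrier Serpina6, were lower, with a median of -0.27, where 62.3% of genes above the minimum were lower with a median of -0.06. Zbtb16, a transcription factor induced by glucocorticoids, read 1178 and 639 (-0.88), and Hsd11b1, which encodes the enzyme that makes active glucocorticoid in fat, 480 and 305 (-0.65).

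**Figure D4:**
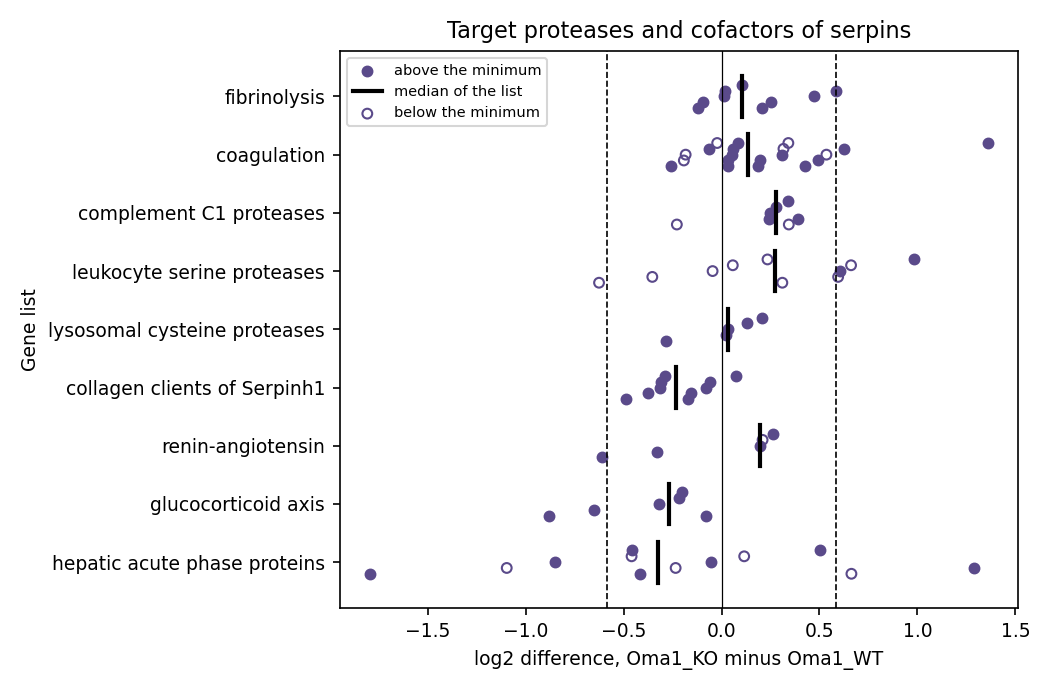
Log2 difference, Oma1_KO minus Oma1_WT, of single genes in 9 lists of serpin targets, cofactors and related proteins, filled at or above the minimum of 83 and open below it, with the median of each list as a black bar and the 1.5-fold lines dashed. The collagen and glucocorticoid lists lie mostly below 0 (medians -0.23 and -0.27), and the complement C1 list mostly above it (0.28).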

How the data were processed

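The authors deposited 1 linear intensity per probe set and array, rounded to whole numbers, as the values show. Which software, background correction and scaling they used is not given in the sources used here. RNA was isolated with Trizol and biotin-labelled, per the labels' protocols. Intensities ran from 8 to 21216 in Oma1_WT and from 8 to 21365 in Oma1_KO, and the upper quartiles were 335 and 318. Precision is limited by having 1 array per group.

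Of 35512 probe sets, 21789 had 1 gene symbol in GEO's platform annotation, 1621 several and 12102 none; only the first entered gene values, averaged per gene on the log2(intensity + 1) scale. No normalisation was added. Genes counted as past a size at 1.5-fold or 2-fold. Members and gene lists were chosen with earlier results of these data known. Named were all members above the minimum, dimmer members past 1.5-fold or next to the minimum, other dim members for their role, and up to 4 genes of each other list with large differences or as direct targets. The naming of dim members and of direct targets for their role goes beyond the rule written at the start and was made after their values were seen. Calculations were tested on simulated data. Alternatives were quantile normalisation, loess (fraction 0.3), centring, the brightest probe set, a pseudocount of 16 and 4 other filters. Python 3.11.15, numpy 2.4.6, pandas 2.3.3, statsmodels 0.14.6 and matplotlib 3.10.9 were used.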

Additional observations from a re-analysis of the deposited data

Results flagged for a closer look

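A probe set outside the gene values read higher in Oma1_KO than in the single control array. The dimmer of the 2 probe sets shared by Serpina1a to Serpina1e, left out because it has several symbols, differed by 0.78 on the log2 scale between Oma1_KO and Oma1_WT, at 291 in Oma1_WT and 501 in Oma1_KO. The brighter of them, with the same 5 symbols, read 2821 and 2891, a difference of 0.04.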

How the results depend on the processing

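No paired analysis was possible because each group has 1 array, and for the same reason none could be left out. All 9 alternatives were planned. The 3 members at least 1.5-fold higher became 1 with a pseudocount of 16 (Serpina1c), 2 with loess and 2 with the minimum on the Oma1_WT value (both without Serpind1), 4 with centring (with Serpina1d), 6 with no minimum and 0 with the minimum at the upper quartile of 326, which left 6 members. The 1 lower member, also the 1 past 2-fold, became 0 and 0 at the upper quartile. The 0 members at least 2-fold higher became 1 (Serpina1c) with quantile normalisation, 1 with loess and 1 with centring. The median of the members above the minimum, 0.20, became 0.00 with no minimum, -0.060 at the upper quartile and -0.023 with the minimum on the Oma1_WT value. In the 9 lists of targets, cofactors and related proteins together, 6 genes higher became 3 at the upper quartile, and 5 lower became 3 there, 3 with quantile normalisation and 3 with loess; the 5 are Agt, Hsd11b1, Zbtb16, Orm2 and Saa2, none of them a target protease. Which genes pass explains the values at the upper quartile, with no minimum and with the minimum on the Oma1_WT value by construction. These settings leave each difference unchanged. With no minimum 48 members passed, and with the minimum on the Oma1_WT value 13 did. For the others the cause was not tested. Only 4 alternatives (quantile, loess, centring, pseudocount) can change a member's own difference. For the 15 members above the minimum and the 3 dimmer ones past 1.5-fold, 69 of these 72 values moved by less than the SD of 0.17, and 3 moved more, all with a pseudocount of 16 (Serpina3b to -1.25, Serpina6 to 0.61, Serpina4-ps1 to 0.56). Of all 48 members 5 changed sign under a scaling: Serping1, and Serpina1f, Serpina3a, Serpina9 and Serpina16 below the minimum.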

Other observations

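Many members lie in gene clusters, by the RefSeq annotation. Of the 14 members on chromosome 12, all of clade A, 4 were higher in Oma1_KO by 1.5-fold or more and 1, Serpina3b, was lower by that much. Of the 4, only Serpina1c was above the minimum, and 1.15% of all genes were higher by that size. Of the 13 members on chromosome 13, all of clade B, 0 reached 1.5-fold in either direction, which 2.55% of all genes did. The 12 members on chromosome 1 held 1 gene at least 1.5-fold higher, Serpinc1, which lies apart from the clade B genes there. Differences between clusters were not tested.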
